A study of Homo sapiens with 12 samples.

Results

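The genes described here encode the factors that start and stop transcription by RNA polymerase I (Pol I): RRN3, UBTF, TAF1A, TAF1B, TAF1C, TAF1D and TTF1. They were chosen by symbol, through their Ensembl identifiers, and all 7 were found among the 63241 genes of the count table. All 7 also passed the filter on low counts that left 23593 genes for testing. Total RNA was sequenced from HCT116, a human colorectal carcinoma cell line, in 12 libraries that form 4 groups of 3. The controls were wild-type cells given DMSO, listed at 8 h. The POLR1A group carried a POLR1A-AID1 degron, a tag through which auxin brings about loss of the tagged protein, here the largest Pol I subunit. It had 500 µM IAA, listed at 8 h, with OsTIR1, the plant receptor this needs, switched on by 1 µg/ml doxycycline begun 24 h earlier. The POLR2A group carried a POLR2A-AID2 degron on the largest subunit of RNA polymerase II (Pol II) and had 1 µM 5-PH-IAA, listed at 8 h. The actinomycin D group was wild-type cells given 5 µg/mL of this DNA-binding transcription inhibitor, listed at 6 h, and the extraction text gives a harvest at 6 h for every condition. The degron lines have no untreated libraries here, so line, inducer and ligand cannot be told apart from the depletion, and protein loss itself was not measured in these data. Replicates were dishes treated in parallel on a single day, so p-values measure only the spread between such dishes.

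Pol I makes the precursor of the large ribosomal RNAs from repeated genes in the nucleolus. UBTF, a protein with several HMG boxes, coats the active repeats and bends their DNA. Selectivity factor 1 (SL1), built from the TATA-binding protein TBP and the TAF1A, TAF1B, TAF1C and TAF1D proteins, sits on the core promoter. RRN3, also called TIF-IA, rides on the polymerase and joins it to SL1, and its activity follows growth and stress signals. TTF1 binds terminator sequences past the end of the transcribed region and also a site upstream of the promoter. The mRNAs of these proteins are themselves made by Pol II, so each is a Pol II product that serves Pol I.

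The starts of the 7 genes are shown because all 7 mRNAs were lower after POLR2A depletion. The sequences come from RefSeq on GRCh38.p14 and run 5′ to 3′ on the gene's strand from 120 bases before the annotated start through the first 30 transcribed bases. RefSeq lists a further start for RRN3, UBTF and TAF1B, and of these the start whose stretch holds every match was taken, or the first listed for UBTF, which has none. Capitals mark the letters CCGGAA, the core that ETS-family factors recognise, or their reverse complement.
RRN3, chr16:15094243-15094392, minus strand: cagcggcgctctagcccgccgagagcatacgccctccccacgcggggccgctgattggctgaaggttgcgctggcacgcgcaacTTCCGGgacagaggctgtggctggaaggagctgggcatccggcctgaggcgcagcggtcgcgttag
UBTF, chr17:44220853-44221002, minus strand: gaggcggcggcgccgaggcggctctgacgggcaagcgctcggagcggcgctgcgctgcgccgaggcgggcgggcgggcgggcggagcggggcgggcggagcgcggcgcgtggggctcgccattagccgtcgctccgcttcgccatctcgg
TAF1A, chr1:222589904-222590053, minus strand: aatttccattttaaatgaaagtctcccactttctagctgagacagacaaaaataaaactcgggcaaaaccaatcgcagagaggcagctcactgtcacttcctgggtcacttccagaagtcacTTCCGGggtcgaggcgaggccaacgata
TAF1B, chr2:9843354-9843503, plus strand: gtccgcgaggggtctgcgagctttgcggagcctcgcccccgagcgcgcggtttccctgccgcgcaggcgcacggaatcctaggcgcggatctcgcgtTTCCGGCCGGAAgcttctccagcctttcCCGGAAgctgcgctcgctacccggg
TAF1C, chr16:84187028-84187177, minus strand: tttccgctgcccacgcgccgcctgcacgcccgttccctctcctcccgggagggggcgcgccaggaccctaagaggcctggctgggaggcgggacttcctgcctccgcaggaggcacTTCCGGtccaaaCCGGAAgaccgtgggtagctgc
TAF1D, chr11:93741466-93741615, minus strand: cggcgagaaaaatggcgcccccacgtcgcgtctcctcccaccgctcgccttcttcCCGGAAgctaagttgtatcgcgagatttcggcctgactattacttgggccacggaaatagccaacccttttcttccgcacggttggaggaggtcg
TTF1, chr9:132406811-132406960, minus strand: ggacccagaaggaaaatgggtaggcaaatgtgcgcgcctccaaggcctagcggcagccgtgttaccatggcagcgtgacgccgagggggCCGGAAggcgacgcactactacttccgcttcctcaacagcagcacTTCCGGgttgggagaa

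The CCGGAA letters stood close to the start in every gene but UBTF. In windows of 300 bases (250 before the start and 50 from it, both strands), CCGGAA or its complement was present in 6 of the 7 genes and in 8 of their 10 listed windows. The windows of RRN3 overlap and hold the same site, as do those of TAF1B with their sites, so the count of windows repeats them. The letters were present in 17.2% of all 35116 windows of that length, which were not limited to expressed genes. With the first transcribed base as 1, the match in the stretches shown began at -36 in RRN3, at -65 in TAF1D and at 3 in TAF1A. The UBTF stretch had a GC content of 82% and a run of GC boxes (GGGCGG) that began at -54, -50, -46, -42, -32 and -28. GGGCGG was found in UBTF and TAF1D only, against 45% of all windows. CCAAT was found in RRN3, TAF1A, TAF1B and TAF1C, against 34.6% of all windows. The E-box CACGTG, the letters TATAAA and TGACGTCA were found in none of the 10 windows, against 7.26%, 11.5% and 1.85% of all windows, and TTTGAA in TAF1A only, against 15.2%. These are matches of letters and say nothing of which factor was bound. Genes that did not fall after POLR2A depletion were not compared, so a link of these letters to the fall was not tested.

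Library totals ran from 11289272 to 27394059 estimated counts, and were lower in the POLR2A group (15037531 at most) than in the actinomycin D group (20302228 at least). Levels are given as CPM, counts relative to the library total on the usual per-million scale, after scaling by the trimmed mean of M values (TMM), which assumes that most genes do not change. Epithelial genes were present, with a summed level of 8 markers from 3557 to 4026 CPM in controls, 1988 to 2137 after POLR1A depletion, 2382 to 2587 after POLR2A depletion and 3227 to 3507 under actinomycin D. KRT8, KRT18 and KRT19 made up most of this sum. Of the other markers VIL1 (1 CPM) and CLDN3 (4.42 CPM) were low in controls, and CLDN3 averaged 0.639 CPM after POLR2A depletion. The sum over 9 markers of blood, vessel, fibroblast and liver cells, of which CD3E, COL1A2 and DCN were below the filter, was 8.15 to 8.64 CPM in controls, 22 to 23.5 after POLR1A depletion, 27.6 to 31 after POLR2A depletion and 11.2 to 12.9 under actinomycin D. COL1A1 made up most of it in every group but the POLR2A-depleted one, where PECAM1 at 7.92 CPM and ALB at 4.6 CPM added to it, and its part in the results was not tested. All levels are relative to the other RNAs in a library, and in bulk RNA fewer expressing cells and less RNA per cell cannot be told apart. Scaling to the mRNAs of the mitochondrial genome, which made up 6.06% to 8.17% of control counts and 3.42% to 3.54% under actinomycin D, moved the median log2 fold change of all genes from 0.01 to 0.37 after POLR1A depletion, from 0.08 to -0.2 after POLR2A depletion and from -0.06 to 0.82 under actinomycin D. Whether a treatment, actinomycin D included, changed the mitochondrial mRNAs themselves was not tested. Calls under that scaling are therefore relative to RNAs that may have moved as well.

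After POLR2A depletion, the mRNAs of all 7 factors fell. The falls ranged from 0.38 on the log2 scale for RRN3 to 1.19 for TAF1D, and every POLR2A-depleted library was below every control library for each gene. In this comparison 28.2% of all tested genes were called lower, and 49.8% of the 10707 more abundant genes, those whose mean log2 CPM was at least 3, as in all 7 factors. The median change of the 7 was -0.94, beside 0.08 over all tested genes. That wider median takes in the weaker genes, and none was computed for the more abundant genes alone, here or in the comparisons below. Calls are Benjamini-Hochberg adjusted p-values under 0.05 over all tested genes, from edgeR's quasi-likelihood test. All 7 were called lower under every alternative setting tried, scaling to mitochondrial mRNAs included.

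After POLR1A depletion, 5 of the 7 fell, TAF1A, UBTF, TTF1, RRN3 and TAF1D, and the SL1 subunits TAF1B and TAF1C were not called. Of all tested genes 18.6% were called lower, and 30.5% of the more abundant ones. The median of the 7 was -0.28, beside 0.01 over all genes. Under actinomycin D, 4 of the 7 fell, TAF1D, TTF1, TAF1A and UBTF, while RRN3, TAF1B and TAF1C were not called. Here 28.5% of all tested genes were called lower, and 34.9% of the more abundant ones, and the medians were -0.18 for the 7 and -0.06 for all genes. DESeq2 called 3 of the factors lower under actinomycin D and did not call UBTF, beside 26.2% of all its tested genes. No factor was called higher in these 3 comparisons by edgeR or by DESeq2, and at an unadjusted p under 0.05 in edgeR only 1 was higher, TAF1B after POLR1A depletion. Over all tested genes 20.6%, 33.2% and 24.9% were called higher after POLR1A depletion, after POLR2A depletion and under actinomycin D, and 34.2%, 23% and 44% of the more abundant ones. The 3 comparisons share the control libraries, so their values stand side by side and are not independent of each other. Under scaling to mitochondrial mRNAs only TAF1A was still called lower after POLR1A depletion and TAF1B was called higher, beside 5.35% lower and 30.5% higher over all tested genes in that fit. Under actinomycin D that scaling called none of the factors lower and 5 higher, beside 8.74% and 50.4% of all tested genes.

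**Figure D1:**
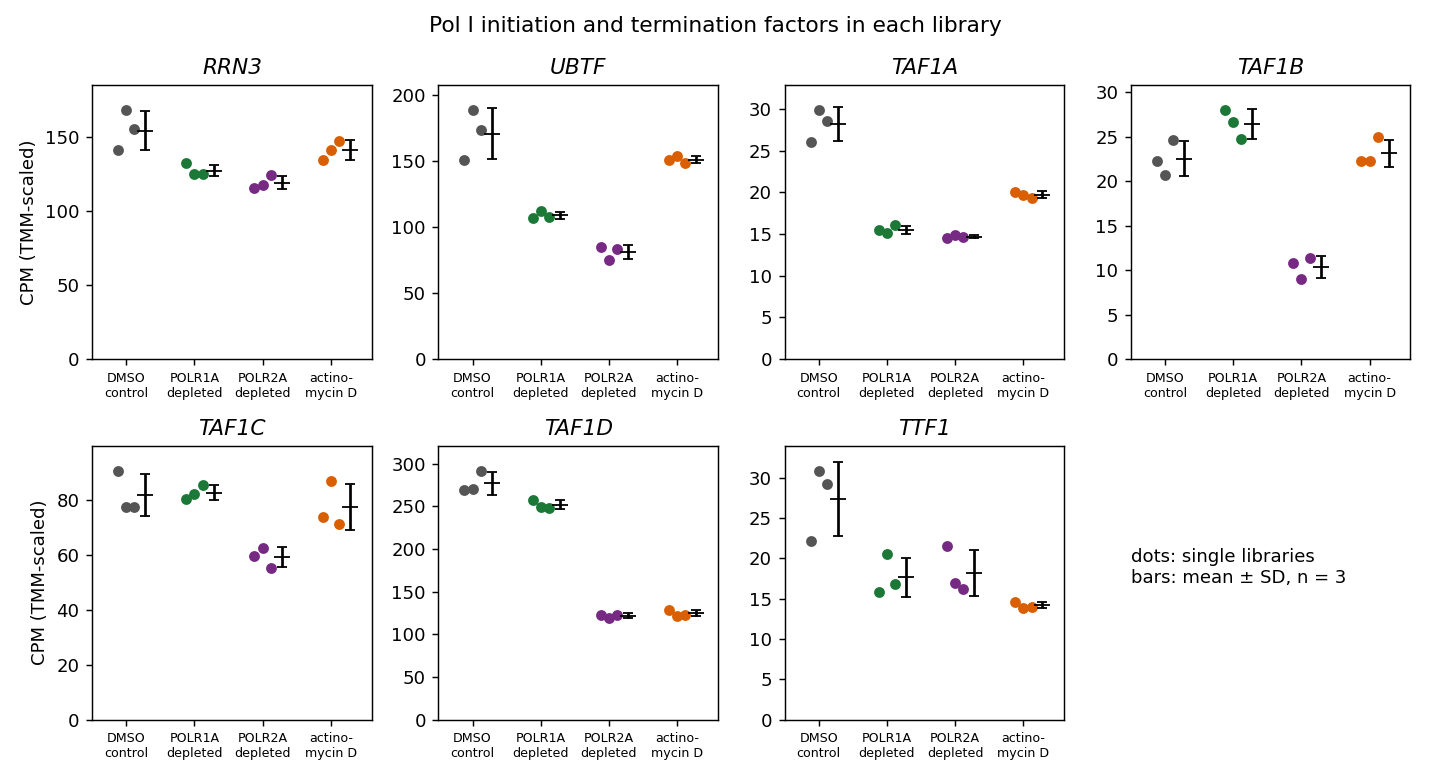
Levels of the 7 factors in each library, in TMM-scaled CPM on axes that start at 0, with the mean and SD of the 3 libraries of a group beside the dots. TAF1D falls to a like level after POLR2A depletion and under actinomycin D (122 and 125 CPM on average), while TAF1B is low only after POLR2A depletion (10.3 CPM).

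RRN3, which couples Pol I to SL1, fell in both degron groups and was not called under actinomycin D. RRN3 (ENSG00000085721, chr16:15060022-15094317 in GENCODE 29 on GRCh38, minus strand) stood at 141, 168 and 155 CPM in control replicates 1 to 3 and at 132, 125 and 125 CPM after POLR1A depletion. After POLR2A depletion its libraries held 115, 117 and 124 CPM, and under actinomycin D 134, 141 and 147 CPM. Both degron groups lay below all controls, while the actinomycin D range overlapped that of the controls. RRN3 fell by 0.28 (SE 0.06, adjusted p = 0.00054) after POLR1A depletion, but stood at 0.08 and was not called under scaling to mitochondrial mRNAs. It fell by 0.38 (SE 0.06, adjusted p = 1.16e-05) after POLR2A depletion. Under actinomycin D its change was -0.13 (SE 0.06, adjusted p = 0.0621, 95% interval -0.26 to -0.01), which reached -0.18 and an adjusted p of 0.0116 without control replicate 1. RRN3 was also called lower with library totals alone (-0.25), with the 50-count filter (-0.18) and in the fit of these groups alone (-0.18), and called higher under scaling to mitochondrial mRNAs (0.79, adjusted p = 4.13e-07).

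UBTF, the HMG-box protein of the rDNA, was lower in both degron groups and nearly at the control level under actinomycin D. UBTF (ENSG00000108312, chr17:44205033-44221626, minus strand) held 151, 189 and 174 CPM in controls and 107, 112 and 108 CPM after POLR1A depletion. Its libraries held 84.6, 74.8 and 83.3 CPM after POLR2A depletion and 151, 154 and 149 CPM under actinomycin D. The degron groups did not overlap with the controls or with each other, and the actinomycin D libraries overlapped control replicate 1. After POLR2A depletion UBTF fell to 47.1% of the control level, a log2 change of -1.09 (SE 0.07, adjusted p = 2.11e-11). After POLR1A depletion it fell to 63.6%, a log2 change of -0.65 (SE 0.07, adjusted p = 6.34e-08), which was -0.29 and not called under scaling to mitochondrial mRNAs. The fall under actinomycin D was 0.18 (SE 0.07, adjusted p = 0.0237). That call was lost without control replicate 2 (-0.09, adjusted p = 0.257), without control replicate 3 (-0.16) and without actinomycin D replicate 1 (-0.17), 2 (-0.19) or 3 (-0.16), with DESeq2 (-0.14, adjusted p = 0.115), with RLE factors (-0.14) and without a filter (-0.09). The value turned to 0.74 under scaling to mitochondrial mRNAs. The counts are per gene and do not separate the long and short UBTF isoforms.

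The 4 TAF1 genes, which encode the Pol I-specific subunits of SL1, differed in which treatment they followed. TAF1A (ENSG00000143498, chr1:222557902-222589933, minus strand) was lower in all 3 treated groups. Its controls held 26, 29.9 and 28.6 CPM, against 15.5, 15.1 and 16.1 CPM after POLR1A depletion and 14.5, 14.9 and 14.6 CPM after POLR2A depletion. Under actinomycin D TAF1A stood at 20.1, 19.7 and 19.3 CPM, between the controls and the degron groups without touching either. It fell by 0.86 (SE 0.08, adjusted p = 3.11e-08) after POLR1A depletion, the most of the 7 in that comparison. It fell by 0.94 (SE 0.09, adjusted p = 7.06e-09) after POLR2A depletion and by 0.52 (SE 0.08, adjusted p = 1.63e-05) under actinomycin D. The last value turned to 0.41 (adjusted p = 0.0336) under scaling to mitochondrial mRNAs, while the change after POLR1A depletion stayed below 0 and called, at -0.5.

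TAF1B, a subunit with similarity to the Pol II factor TFIIB, was low in a single group. TAF1B (ENSG00000115750, chr2:9843354-9934416, plus strand) held 22.2, 20.7 and 24.6 CPM in controls and 28, 26.6 and 24.7 CPM after POLR1A depletion. It held 10.8, 8.94 and 11.3 CPM after POLR2A depletion and 22.2, 22.3 and 24.9 CPM under actinomycin D. The POLR2A-depleted libraries were below all 9 others. The POLR1A-depleted libraries all lay above the controls, with 24.7 against 24.6 CPM at the closest, and the actinomycin D range overlapped both. After POLR2A depletion it fell by 1.13 (SE 0.11, adjusted p = 9.74e-09), to 45.6% of controls. After POLR1A depletion the change was 0.23 (SE 0.1, adjusted p = 0.0667, 95% interval 0.03 to 0.43) and missed the threshold. It passed without control replicate 3 (0.31, adjusted p = 0.0324), with library totals alone (0.27) and under scaling to mitochondrial mRNAs (0.59). Under actinomycin D the change was 0.04 (adjusted p = 0.779, 95% interval -0.16 to 0.24), but 0.96 and called higher (adjusted p = 7.54e-07) under scaling to mitochondrial mRNAs.

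TAF1C, the largest TAF1 subunit of SL1, fell after POLR2A depletion and was not called in the other comparisons with controls. TAF1C (ENSG00000103168, chr16:84177847-84187070, minus strand) held 90.9, 77.5 and 77.6 CPM in controls and 80.5, 82.5 and 85.8 CPM after POLR1A depletion. It held 59.9, 62.7 and 55.4 CPM after POLR2A depletion and 74.1, 87.1 and 71.4 CPM under actinomycin D. Control replicate 1 was its highest library, whereas for RRN3, UBTF, TAF1A, TAF1D and TTF1 that library was the lowest control. TAF1C fell by 0.46 (SE 0.08, adjusted p = 4e-05) after POLR2A depletion. Its 95% intervals were -0.14 to 0.18 after POLR1A depletion (adjusted p = 0.88) and -0.24 to 0.08 under actinomycin D (adjusted p = 0.424), and the sign of both small values changed between settings. Under scaling to mitochondrial mRNAs the actinomycin D value was 0.81 and called higher (adjusted p = 4.88e-06).

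TAF1D, an SL1 subunit whose gene also hosts small nucleolar RNAs, had the highest count of the 7 in controls and fell by more than 1 on the log2 scale after POLR2A depletion and under actinomycin D. TAF1D (ENSG00000166012, chr11:93729948-93784391, minus strand) held 269, 270 and 292 CPM in controls and 258, 249 and 248 CPM after POLR1A depletion. It held 123, 119 and 123 CPM after POLR2A depletion and 129, 122 and 123 CPM under actinomycin D. The last 2 groups overlapped each other and lay far below the remaining 6 libraries. TAF1D fell by 1.19 (SE 0.05, adjusted p = 2.54e-14) after POLR2A depletion and by 1.15 (SE 0.05, adjusted p = 2.19e-14) under actinomycin D, though the latter was -0.24 and not called under scaling to mitochondrial mRNAs. The fall of 0.14 (SE 0.05, adjusted p = 0.0258) after POLR1A depletion was small. It lost its call without control replicate 3 (-0.09), without POLR1A-depleted replicate 2 (-0.13) or 3 (-0.12), with library totals alone (-0.1) and without a filter (-0.15), and it turned to 0.21 under scaling to mitochondrial mRNAs.

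TTF1, the terminator-binding factor, fell in all 3 treated groups. This TTF1 (ENSG00000125482, chr9:132375548-132406851, minus strand) is not the thyroid factor NKX2-1, which has carried the same name. It held 22.2, 30.9 and 29.2 CPM in controls and 15.9, 20.5 and 16.8 CPM after POLR1A depletion. It held 21.5, 16.9 and 16.2 CPM after POLR2A depletion and 14.6, 13.9 and 14 CPM under actinomycin D. The degron groups overlapped each other, and POLR2A-depleted replicate 1 came within 1 CPM of control replicate 1. In controls its spread was the largest of the 7 relative to its level (27.4 ± 4.57 CPM, SD, n = 3). It fell by 0.63 (SE 0.13, adjusted p = 0.0004) after POLR1A depletion, 0.6 (SE 0.13, adjusted p = 0.000559) after POLR2A depletion and 0.96 (SE 0.13, adjusted p = 2.66e-06) under actinomycin D. Under scaling to mitochondrial mRNAs the first and the last of these stood at -0.25 and -0.02 and were not called, while the second was -0.87 and called.

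**Figure D2:**
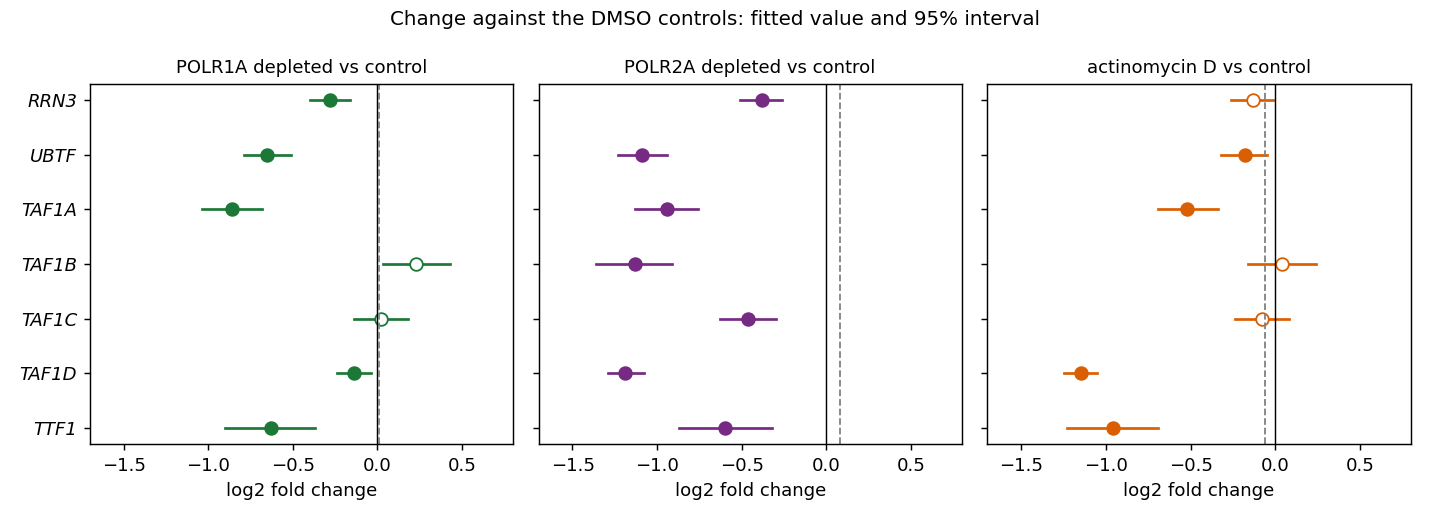
Fitted log2 fold change of each factor against the controls with its 95% interval, filled where the gene was called and open where it was not. The dashed line is the median of all tested genes, weaker ones included, and all 7 factors lie to its left after POLR2A depletion (-0.38 to -1.19).

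The treatments were then set against each other, which tests the differences between them directly. UBTF was lower after POLR2A depletion than after POLR1A depletion by a log2 difference of -0.43 (SE 0.07, adjusted p = 1.29e-05), TAF1B by -1.36 (SE 0.11, adjusted p = 3.43e-10), TAF1C by -0.48 (SE 0.08, adjusted p = 2.05e-05) and TAF1D by -1.05 (SE 0.05, adjusted p = 1.67e-13). In that comparison 29.1% of all tested genes were called lower and 33.2% higher (52.1% and 22.1% of the more abundant genes), and no factor was called higher by edgeR or DESeq2, nor at an unadjusted p under 0.05 (0 in each case). RRN3, TAF1A and TTF1 were not called, with 95% intervals of -0.23 to 0.02, -0.27 to 0.1 and -0.23 to 0.31. The SL1 subunits thus split, with TAF1B, TAF1C and TAF1D lower after POLR2A depletion than after POLR1A depletion and TAF1A not called. TBP, the SL1 subunit that is not among the 7 factors, was called higher in this comparison (0.33), which for TBP was not examined under other scalings. Under scaling to mitochondrial mRNAs all 7 were called lower, as were 48% of all tested genes. Under TMM scaling without a filter RRN3 was called lower as well (-0.19).

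Against POLR1A depletion, actinomycin D libraries had 3 factors higher and 2 lower, beside 24.4% and 31.8% of all tested genes and 40.7% and 38.3% of the more abundant ones. UBTF was higher by 0.47 (SE 0.07, adjusted p = 2.9e-06) and TAF1A by 0.34 (SE 0.08, adjusted p = 0.00152). TAF1D was lower by a log2 difference of -1.01 (SE 0.05, adjusted p = 1.17e-13). RRN3 at 0.15 (adjusted p = 0.0386) and TTF1 at -0.33 (adjusted p = 0.039) were near the threshold. With library totals alone TAF1A was 0.18 (adjusted p = 0.0772) and RRN3 -0.01, neither called, so that UBTF was the 1 factor still higher. RRN3 lost its call without POLR1A-depleted replicate 2 (0.14) or 3 (0.14) or actinomycin D replicate 2 (0.15) or 3 (0.12). TTF1 lost its own without POLR1A-depleted replicate 2 (-0.21) or 3 (-0.36), without actinomycin D replicate 1 (-0.34), 2 (-0.31) or 3 (-0.32), with the replicate number as a block (adjusted p = 0.0564), with DESeq2 (-0.26), with RLE factors (-0.26) and without a filter (-0.22), and turned to 0.24 under scaling to mitochondrial mRNAs. TAF1B (95% interval -0.39 to 0.01) and TAF1C (-0.25 to 0.06) were not called. With library totals alone both were called lower (-0.35 and -0.26), as was TAF1C without actinomycin D replicate 2 (-0.19), and under scaling to mitochondrial mRNAs TAF1C was called higher (0.46).

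Against POLR2A depletion, actinomycin D libraries had 5 factors higher and 1 lower, beside 31.1% and 39.8% of all tested genes and 58.2% and 23.4% of the more abundant ones. TAF1B was 2.25-fold higher (log2 difference 1.17, SE 0.11, adjusted p = 3.14e-09) and UBTF 1.87-fold higher (0.9, SE 0.07, adjusted p = 2.47e-10). TAF1A, TAF1C and RRN3 were higher by 0.43, 0.39 and 0.25 (adjusted p = 0.000206, 0.000186 and 0.000858), and with library totals alone these were 0.18, 0.14 and 0.01 and not called. RRN3 was not called with the 50-count filter either (0.06). TAF1D did not differ beyond its error, at 0.04 with a 95% interval of -0.06 to 0.14, and its sign and call changed with the setting. It was -0.2 with library totals alone and 1.25 under scaling to mitochondrial mRNAs. TTF1 was lower by a log2 difference of -0.37 (SE 0.13, adjusted p = 0.0196), a call that was lost without POLR2A-depleted replicate 1 (-0.21), without actinomycin D replicate 1 (-0.35), 2 (-0.32) or 3 (-0.34) and without a filter (-0.17). It turned to 0.85, called higher, under scaling to mitochondrial mRNAs.

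Levels can be compared between genes only per length, so CPM were divided by the length of all annotated exons of a gene. In controls RRN3 stood highest at 37.2 ± 3.21 CPM per kilobase (kb) and TAF1D next at 32.9 ± 1.56, with ranges that overlapped (SD, n = 3 each). UBTF followed at 24.5 ± 2.8, TAF1C at 14.7 ± 1.38, TAF1A at 9.73 ± 0.687, TTF1 at 8.54 ± 1.42 and TAF1B at 5.54 ± 0.486 CPM per kb. Apart from RRN3 and TAF1D, the only neighbours in this order whose ranges overlapped were TAF1A and TTF1. The TAF1 subunits of SL1 were thus spread widely, with TAF1D at the top and TAF1B at the bottom in controls. Under actinomycin D UBTF (21.6 ± 0.374 CPM per kb) stood above TAF1D (14.8 ± 0.417), and TTF1 was last at 4.41 ± 0.108. After POLR1A depletion TAF1A was last at 5.36 ± 0.179, within the range of TTF1 at 5.51 ± 0.753. The order depends on the length used: by the longest transcript TAF1D led the controls at 63.6 ± 3.01 CPM per kb, above RRN3 at 41.1 ± 3.54, and 3 of the 7 kept their place.

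Ratios within a library are free of any scaling between libraries. TAF1D made up 51%, 52.2% and 53.8% of the summed per-kb level of the 4 TAF1 genes in control replicates 1 to 3 and 53.4%, 52.7% and 52.1% after POLR1A depletion. Its share was 44.3%, 43.1% and 45.1% after POLR2A depletion and 37.3%, 34.2% and 36.4% under actinomycin D, below every control in both groups. The share of TAF1A was 14.3%, 16.8% and 15.3% in controls and 9.32%, 9.26% and 9.85% after POLR1A depletion, the group in which it was lowest. The ratio of TAF1A to TAF1B counts was 1.17, 1.44 and 1.16 in controls, 0.552, 0.566 and 0.652 after POLR1A depletion, 1.35, 1.66 and 1.29 after POLR2A depletion and 0.905, 0.884 and 0.775 under actinomycin D. So these 2 subunits of SL1 moved apart in the POLR1A-depleted and actinomycin D libraries and kept a ratio that overlapped the controls after POLR2A depletion. The ratio of UBTF to RRN3 counts was 1.07, 1.13 and 1.13 in controls, 0.814, 0.894 and 0.87 after POLR1A depletion, 0.737, 0.639 and 0.673 after POLR2A depletion and 1.12, 1.09 and 1.01 under actinomycin D. It was below every control in both degron groups and overlapped the controls under actinomycin D.

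**Figure D3:**
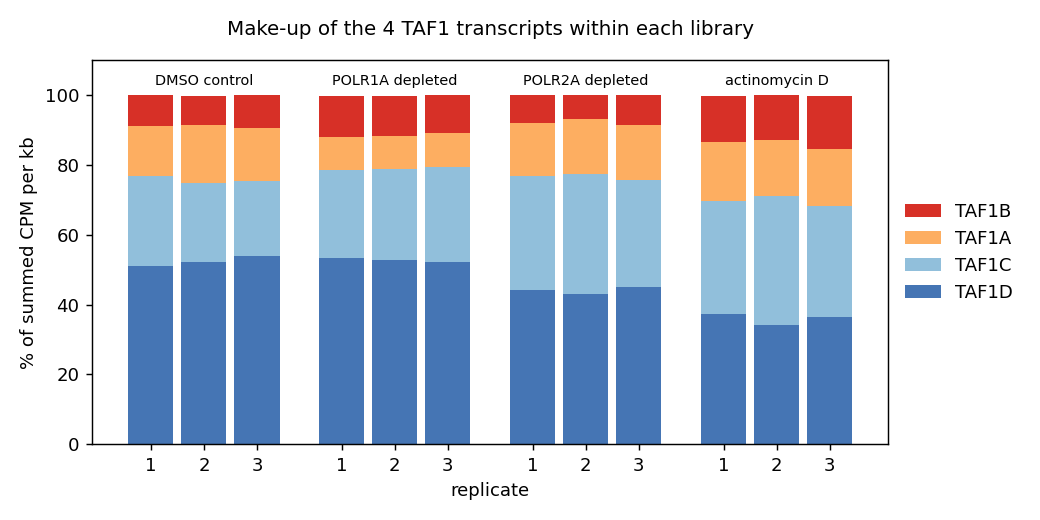
Share of each TAF1 gene in the summed CPM per kb of TAF1A, TAF1B, TAF1C and TAF1D, in percent, for each of the 12 libraries. TAF1D shrinks from 52.3% on average in controls to 36% under actinomycin D, and TAF1A is thinnest after POLR1A depletion (9.48%).

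TBP, the SL1 subunit that also serves Pol II and Pol III, fell under actinomycin D and was not called in either degron group. It averaged 23 ± 2.75 CPM in controls, 19.8 ± 0.895 after POLR1A depletion, 24.9 ± 2.48 after POLR2A depletion and 8.45 ± 0.374 under actinomycin D (SD, n = 3 each). TBP fell by 1.45 (SE 0.11, adjusted p = 1.65e-10) under actinomycin D. It was not called after POLR1A depletion (-0.22, adjusted p = 0.0877) or after POLR2A depletion (0.11, adjusted p = 0.373), the group in which all 4 TAF1 genes fell. Scaling to mitochondrial mRNAs gave -0.52 (adjusted p = 0.00917) under actinomycin D, 0.15 after POLR1A depletion and -0.17 after POLR2A depletion, and library totals alone called TBP higher after POLR2A depletion (0.23, adjusted p = 0.0406). Between treatments, TBP was called lower under actinomycin D than after POLR1A depletion (-1.23) or POLR2A depletion (-1.56). It was called higher after POLR2A depletion than after POLR1A depletion (0.33). For TBP these differences between treatments were not examined under the other scalings.

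Among 8 subunits of Pol I named POLR1A to POLR1H, of which POLR1C and POLR1D also serve Pol III, 7 fell and 1 rose after POLR1A depletion, 5 fell after POLR2A depletion and 8 fell under actinomycin D. Their median changes were -0.75, -0.54 and -0.61, beside -0.28, -0.94 and -0.18 for the 7 factors, and no test of the difference between the 2 sets was made. Beside these counts, 30.5%, 49.8% and 34.9% of the more abundant genes were called lower, and 34.2%, 23% and 44% higher. With RLE factors or library totals alone, 5 subunits were lower after POLR2A depletion and 2, POLR1D and POLR1F, were higher. Over all tested genes 34.9% and 37.7% were higher in these 2 fits, and 26.3% and 23.4% lower. Under scaling to mitochondrial mRNAs the subunits' medians were -0.4, -0.83 and 0.31, with 5, 6 and 3 lower and 1, 0 and 2 higher. Of all tested genes that scaling called 5.35%, 34% and 8.74% lower, and 30.5%, 21.4% and 50.4% higher. POLR1A itself, the gene that carries the degron in the POLR1A group, was among the 7 lower there (-0.69), and any part of the tag in this was not tested. POLR1F, a stalk subunit, rose by 0.3 (SE 0.06, adjusted p = 0.000621) after POLR1A depletion. POLR1G changed by -1.89, -1.53 and -1.64 in the POLR1A, POLR2A and actinomycin D comparisons, more than any of the 7 factors in each, and stayed lower under every scaling tried. POLR1B, the second-largest subunit, fell by 1.52 after POLR2A depletion and by 1.55 under actinomycin D, where RRN3 was not called.

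**Figure D4:**
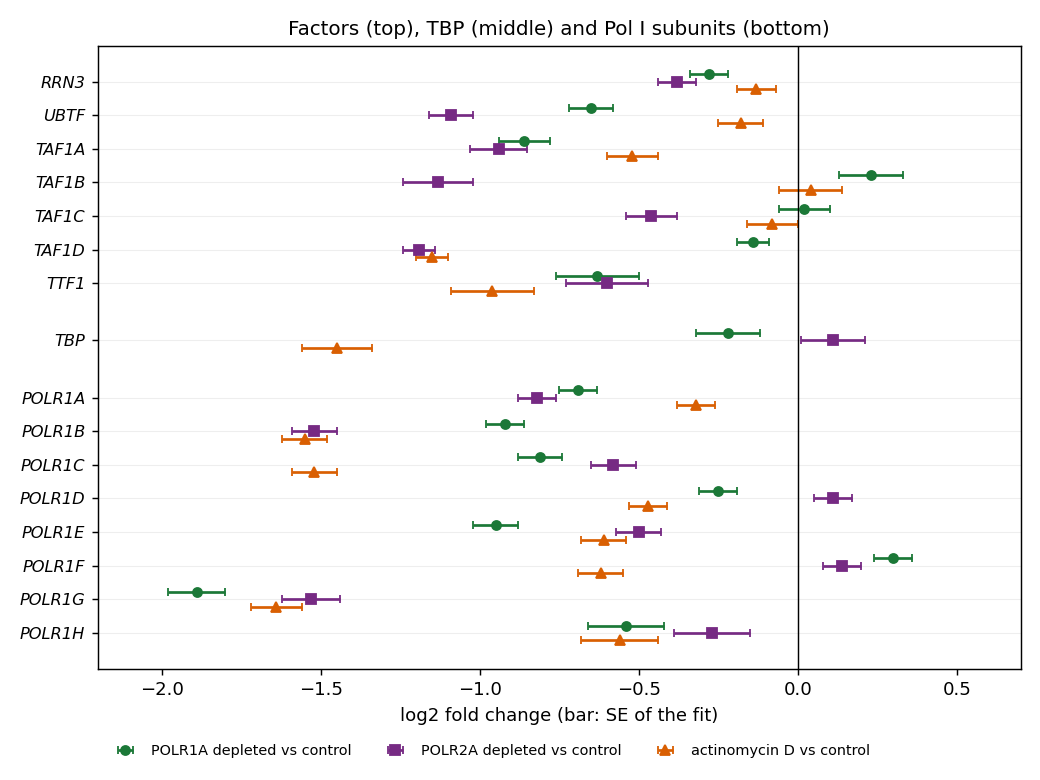
Fitted log2 fold change against controls, with the SE of the fit, for the 7 factors, TBP and the 8 Pol I subunits in the 3 treated groups. TBP is far to the left under actinomycin D only (-1.45), and POLR1G lies left of all 7 factors in each comparison.

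Of a list of 31 genes that regulate Pol I or the chromatin of its repeats, 13 fell and 9 rose after POLR1A depletion, 21 fell and 4 rose after POLR2A depletion, and 9 fell and 15 rose under actinomycin D, with medians of -0.07, -0.32 and 0.13. Of the more abundant genes 30.5%, 49.8% and 34.9% were called lower in these comparisons, and 34.2%, 23% and 44% higher. With library totals alone 12, 17 and 12 of the list were lower and 10, 8 and 14 higher. Over all tested genes that setting called 16.6%, 23.4% and 31.8% lower, and 22.2%, 37.7% and 20.5% higher. Under scaling to mitochondrial mRNAs the medians of the list were 0.28, -0.63 and 1.05, with 7, 23 and 4 lower and 13, 0 and 24 higher. In those fits 5.35%, 34% and 8.74% of all tested genes were called lower, and 30.5%, 21.4% and 50.4% higher. MYC, a transcription factor that raises ribosome production, had changes of -2.4, -3.17 and -5.94 in the 3 comparisons and stayed lower under every scaling tried. MYBBP1A, a nucleolar MYB-binding protein, had changes of -0.96, -1.14 and -0.36, the last of which turned to 0.54 (adjusted p = 0.000535) under scaling to mitochondrial mRNAs. SIRT7, a deacetylase that binds Pol I and UBTF, had changes of -0.21, -0.52 and -1.8, all called, of which the first was not called with library totals alone (-0.17) or under scaling to mitochondrial mRNAs (0.13). BAZ2A, the large subunit of the silencing complex NoRC that TTF1 recruits to the repeats, rose by 0.65 after POLR1A depletion (SE 0.05, adjusted p = 2.61e-09) and by 0.35 under actinomycin D (SE 0.05, adjusted p = 1.07e-05). After POLR2A depletion BAZ2A was not called (-0.01, adjusted p = 0.844), but was called lower under scaling to mitochondrial mRNAs (-0.31, adjusted p = 0.0407).

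The 7 factors did not share a single pattern over the libraries. The likeness of 2 genes was measured as the root mean square (RMS) difference of their log2 CPM over the 12 libraries, each gene centred on its own mean. Among the factors the closest pairs were UBTF and TAF1A at 0.195 and RRN3 and TAF1C at 0.2, and the farthest was TAF1B and TTF1 at 0.648. Among 9774 other protein-coding genes of that abundance (mean log2 CPM at least 3), each factor had closer neighbours. The closest of so many candidates is nearly bound to beat the closest of the few factors. The comparison therefore says nothing of how alike the factors are. TAF1D was nearest to ZNF148 (0.053), SFSWAP (0.0625) and ARHGAP21 (0.0747), which averaged 94.5, 86.3 and 82.6 CPM in controls and 41, 37 and 39.3 CPM after POLR2A depletion. RRN3 was nearest to ATAD2 (0.0519), PMPCA (0.0678) and CIAO1 (0.0684), and UBTF to SRSF3 (0.0568), WDR36 (0.0676) and FAM98A (0.0742). TAF1A was nearest to SRSF7 (0.0666), UTP20 (0.0682) and MCMBP (0.0854), and TAF1C to MST1R (0.0827), INTS2 (0.0861) and USP24 (0.0865). TAF1B was nearest to MED1 (0.101), N4BP2 (0.109) and CSNK1G3 (0.126). TTF1 had the loosest matches, ELOF1 (0.116), UMPS (0.136) and WDR75 (0.147). The RMS also takes in the spread between replicates, which relative to level was largest for TTF1 in controls.

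Genes that overlap the factors can bear on their counts, since reads of similar or overlapping genes are divided by estimation and the strand setting of the counting is not given in the sources used here. TAF1D overlaps exons of CEP295, C11orf54, MED17 and the barely detected AP001273.2 on the opposite strand. The changes of CEP295 were -0.82 after POLR2A depletion and -1.17 under actinomycin D, and those of MED17 were -0.96 and -1.71, all called, while C11orf54 was not called after POLR2A depletion (0.18) and rose by 0.54 under actinomycin D. After POLR1A depletion CEP295 and MED17 were not called (-0.12 and -0.03) and C11orf54 fell by 0.46. RRN3 lies inside the span of PDXDC1 on the opposite strand without shared exons, and PDXDC1 was not called in either degron group (-0.03 and 0.07) and rose by 0.2 under actinomycin D (adjusted p = 0.00093). Exons of UBTF overlap the antisense genes AC004596.1 and AC003102.1, and those of TAF1A overlap TAF1A-AS1. TAF1C overlaps exons of DNAAF1 on the opposite strand, which averaged 1.74 CPM in controls and 8.85 CPM after POLR2A depletion, against 82 and 59.3 CPM for TAF1C. TAF1B and TTF1 overlap no other annotated gene. Of the copies of RRN3, the row with the highest level, RRN3P3 (ENSG00000290865), averaged 7.59 CPM in controls and 4.57 CPM after POLR2A depletion, against 154 and 119 CPM for RRN3 itself.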

How the data were processed

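Total RNA of 12 HCT116 libraries was rRNA-depleted and sequenced with a stranded kit, per the labels' protocols. STAR, RSEM 1.3.3 and HTSeq 2.0.2 are named, without roles, in the submitters' processing notes. The deposited values are estimated counts per Ensembl gene, of which 76.1% were whole. They were rounded. For the counting, strand setting and annotation release are not stated there. Gene coordinates are from GENCODE 29. The 7 genes and all lists were chosen with earlier results of these data known. edgeR 4.0.16 (R 4.3.3) filtered genes by expression, scaled by TMM and fitted 1 mean per group over all 12 libraries (8 residual degrees of freedom, quasi-likelihood test, robust). P-values were Benjamini-Hochberg adjusted over 23593 genes and called under 0.05. Named beside the 7 were their 3 nearest protein-coding genes each, and members of the lists, which were picked as examples after their values were seen. The code was tested on simulated data. Alternatives were DESeq2 1.42.0, library totals, RLE factors, scaling to 13 mitochondrial mRNAs, no filter, at least 50 counts in 3 libraries, fits of the compared groups alone, a replicate block and leaving out each library. A further marker gene of other cell types is not reported here.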

Additional observations from a re-analysis of the deposited data

How the results depend on the processing

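Over 588 recomputed values for single factors, 498 kept direction and side of the threshold, 40 lost a call, 16 gained one and 34 changed sign. After POLR2A depletion against controls all 7 were lower in every alternative run. The causes of the changes below were not tested. No spike-in was used here, so a common shift of all mRNAs cannot be seen. Replicate numbers did not pair libraries: same-number correlations of deviations ran from -0.166 to 0.132, with 2 of 18 over 0.1 and 4 of 18 best with their own number. The replicate block left 41 of 42 values as they were and took the factors lower under actinomycin D than after POLR1A depletion from 2 to 1, the lost call being TTF1 (-0.32, adjusted p = 0.0564).

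After POLR1A depletion against controls, 1 factor was higher with library totals, 1 with mitochondrial scaling and 0 to 1 without single libraries, and 1 was lower with mitochondrial scaling. Under actinomycin D against controls, mitochondrial scaling gave 5 higher and 0 lower. Between the degron groups it gave 7 lower. Under actinomycin D against POLR1A depletion, library totals gave 1 higher and 4 lower, and 1 was lower with DESeq2, with RLE factors, with mitochondrial scaling and without a filter, and 1 to 2 without single libraries. Under actinomycin D against POLR2A depletion, library totals gave 2 higher and 2 lower, and 0 were lower with mitochondrial scaling, 0 without a filter, 2 with the 50-count filter and 0 to 1 without single libraries. By longest transcript 3 of 7 factors kept their level rank, and TAF1D made up 60.5% of the TAF1 genes.

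Signs changed as follows. Mitochondrial scaling gave 0.08 for RRN3 and 0.21 for TAF1D after POLR1A depletion, and 0.79 for RRN3, 0.74 for UBTF, 0.41 for TAF1A and 0.81 for TAF1C under actinomycin D. It gave TTF1 -0.62 between the degron groups, TAF1B 0.37, TAF1C 0.46 and TTF1 0.24 for actinomycin D against POLR1A depletion, and TTF1 0.85 against POLR2A depletion. TAF1C after POLR1A depletion was -0.01 with DESeq2, -0.0047 with RLE factors, -0.01 with the 50-count filter and -0.01 to 0.10 without single libraries. Under actinomycin D TAF1B was -0.08 with library totals, -0.01 with the 50-count filter, -0.01 in the fit of these groups alone and -0.01 to 0.12 without single libraries, and TAF1C was 0.01 without a filter and -0.16 to 0.01 without single libraries. Between the degron groups RRN3 was 0.06 with the 50-count filter, TAF1A 0.00016 with library totals and 0.08 with the 50-count filter, and TTF1 -0.05 without a filter and -0.11 to 0.13 without single libraries. For actinomycin D against POLR1A depletion RRN3 was -0.01 with library totals and TAF1C 0.01 without a filter, and against POLR2A depletion TAF1D was -0.2 with library totals and -0.15 with the 50-count filter. Where library totals were used, the share of calls that were higher went from 46.7% to 39.1% of all genes called under actinomycin D, and mitochondrial scaling took it to 85.2%. That share was 52.6% after POLR1A depletion and 85.1% with mitochondrial scaling, and 54.1% after POLR2A depletion and 38.6% with mitochondrial scaling.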

Other observations

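Of the 8 small nucleolar RNAs hosted by TAF1D, only SNORA25 passed the filter on low counts, with 238 estimated counts over the 12 libraries. It averaged 0.889 CPM in controls, 1.19 after POLR1A depletion, 0.903 after POLR2A depletion and 1.22 under actinomycin D, and was called in none of these comparisons (adjusted p = 0.505, 0.959 and 0.416, edgeR's quasi-likelihood test).

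AC003102.1, an antisense gene that starts inside the first part of UBTF, averaged 0.0589 CPM in controls and 1.65 CPM after POLR2A depletion, a log2 change of 4.56 (adjusted p = 2.03e-05, edgeR's quasi-likelihood test) on 118 estimated counts over all 12 libraries. It was also called higher after POLR1A depletion (2.13, adjusted p = 0.0485) and under actinomycin D (2.25, adjusted p = 0.0265) in edgeR's quasi-likelihood test. AC004596.1, the other antisense gene that overlaps UBTF exons, went the other way on 153 estimated counts. In the same test it was called lower under actinomycin D (-1.52, adjusted p = 0.0252). It was not called after POLR1A depletion (-1.28) or POLR2A depletion (-0.51). DNAAF1, which overlaps the end of TAF1C, rose by 2.35 after POLR2A depletion (SE 0.32, adjusted p = 2.78e-06) and was not called after POLR1A depletion (-0.42) or under actinomycin D (-0.36). Of weakly expressed neighbours that overlap no factor, HHIPL2, SLC4A1 and VSTM5 also rose after POLR2A depletion (3.74, 5.39 and 4.46). CFAP77, NPIPA5 and SMCO4 were not called there, and GRHL1 fell (-1.66).

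RRN3P3 (ENSG00000290865), an RRN3 copy, fell by 0.73 after POLR2A depletion (adjusted p = 0.000856, edgeR's quasi-likelihood test) and by 0.72 under actinomycin D (adjusted p = 0.00082), a treatment in which RRN3 was not called, and was not called after POLR1A depletion (0.17). The other rows for RRN3 copies held 67 estimated counts or fewer over the 12 libraries.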
